A study of Mus musculus with 17 samples.

Results

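The 7 chemokine receptor genes Ccr2, Ccr7, Ccr9, Cxcr3, Cxcr4, Cxcr6 and Cx3cr1 were followed across 9 mouse blood cell populations. They were chosen by gene symbol, with earlier results of these data known. Each has 1 probe set of its own, and they are 7 of the 22180 genes tested. Each of 17 Affymetrix Mouse Gene 2.0 ST arrays holds the RNA of 1 sample, and there are 2 arrays a population but only 1 of the early innate lymphoid progenitor, EILP. The marrow samples are stem cells (HSC), multipotent progenitors primed for lymphoid fates (LMPP), myeloid progenitors that carry flt3 or lack it (flt3+ CMP and flt3- CMP), lymphoid progenitors (CLP), EILP and mature natural killer cells, labelled NK. Early thymic progenitors (ETP) and the later DN3 thymocytes came from thymus. The design text names every population but NK as sorted, and describes cells pooled from long-term chimeras: CD45-congenic B6 CD45.1 recipients, irradiated with 900 rads, that had received marrow of TCF-1 GFP reporter donors and were used after 12 weeks. All groups described there therefore carry the reporter in donor-derived cells, and host cells that survive irradiation are not described. The labels give no age, no sorting markers beyond flt3 in the names, and no statement that replicates are separate animals, and the p-values below therefore describe the spread among these arrays, which may be technical.

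Chemokine receptors are receptors of the cell surface that signal through inhibitory G proteins and direct cell movement toward a chemokine source. CXCR4 binds CXCL12 of the marrow stroma and holds stem and progenitor cells in their niche. CCR2 binds CCL2 and related chemokines and is known for the exit of monocytes from marrow, and CX3CR1 binds CX3CL1 and is a receptor of monocytes, macrophages and some NK cells. CCR7 and CCR9, receptors for CCL19 and CCL21 and for CCL25, are known for bringing progenitors into the thymus. CXCR3 binds CXCL9, CXCL10 and CXCL11 and serves activated T cells and NK cells, and CXCR6 binds CXCL16 and is found on innate lymphoid and T cells.

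Values are log2 expression values as the authors deposited them, and a difference of 1 is a 2-fold change. The array medians lay between 4.45 and 4.62, with a median of all values of 4.54, and replicates of 1 population correlated at 0.9734 to 0.9901 across genes, which are not independent replicates. Probe sets of different genes differ in their response, so levels are compared only within a gene. As means over a list, defining markers set HSC, flt3- CMP, CLP, NK and DN3 above all other populations, and did not separate the others. For flt3- CMP the gap was small. The mean over 7 NK markers was 8.87 to 9.14 in NK and at most 4.73 elsewhere, and that over the 4 DN3 markers measured was 9.20 to 9.39 in DN3 and at most 5.08 elsewhere. HSC markers were at a mean of 7.01 to 7.34 in HSC and CLP markers at 9.40 to 9.59 in CLP, in each case above every other population. The 4 CLP markers measured differed among themselves. Against LMPP, limma called Il7r (3.01) and Ly6d (3.86) higher in CLP and Flt3 lower (-2.16, adjusted p = 0.00199). Dntt had means of 10.67 in CLP, 10.69 in LMPP and 10.95 in ETP. Il7r and Ly6d had means of 9.71 and 9.85 in CLP and 9.85 and 10.69 in DN3. ETP markers did not separate ETP, at 6.99 to 7.10, from DN3, at 6.97 to 7.37, and EILP markers, at 7.16 in EILP, were as high in NK, at 7.19 to 7.46. LMPP markers, at 8.99 to 9.36 in LMPP, overlapped with flt3+ CMP, at 8.67 to 9.02. CMP markers were at 7.13 to 7.18 in flt3- CMP, above every other population. In flt3+ CMP they were at 6.45 to 6.68, below EILP at 6.96 and partly below CLP at 6.66 to 6.84. Between flt3+ CMP and flt3- CMP limma called 0 of the 6 CMP markers, with 3 at an unadjusted p under 0.05. There 0.108% of all genes were called. Csf1r of this list is also among the monocyte and macrophage markers used below. The gene Tcf7 of TCF-1 was not analysed here.

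Neutrophil transcripts were present in all marrow arrays. The mean over 10 neutrophil markers was 8.81 to 11.20 in the 13 marrow arrays, highest in EILP and CLP, and 4.21 to 4.97 in the 4 thymus arrays. The mean over the 9 monocyte and macrophage markers measured was 6.83 to 8.22 in marrow and 4.80 to 5.50 in thymus. Transcripts of the 3 Y-linked genes measured were high in 5 arrays, those of CLP, DN3 and EILP, at a mean of 7.03 to 7.66, and low in the other 12, at 3.03 to 3.38. Of the 11 comparisons made, 6 set arrays of one side of that split against the other, where the effect of the population and that of the split cannot be told apart. They are CLP against LMPP, NK against EILP, NK against CLP, EILP against ETP, ETP against CLP and DN3 against ETP.

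Stretches upstream of the annotated start are shown for 3 receptors whose levels differ below, Ccr2, Cx3cr1 and Cxcr4, the 3 called between ETP and both CLP and EILP. They are the 250 bases before the start in RefSeq, build GRCm38.p6, for Ccr2 on the plus strand at chr9:124101933-124102182, for Cx3cr1 on the minus strand at chr9:120068297-120068546 and for Cxcr4 on the minus strand at chr1:128592300-128592549, each written 5′ to 3′ on the gene's strand. Capitals mark matches, on either strand, to 6 motifs: the E-box CANNTG, the ETS form GAGGAA, the RUNX form TGTGGT, the GATA form GATAAG, the GC box CCGCCC and the TATA form TATAAA.
Ccr2: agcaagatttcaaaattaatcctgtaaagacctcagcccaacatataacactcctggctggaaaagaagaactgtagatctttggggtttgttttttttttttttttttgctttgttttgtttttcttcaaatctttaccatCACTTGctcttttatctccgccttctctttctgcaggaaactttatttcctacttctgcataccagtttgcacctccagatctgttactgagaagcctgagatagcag
Cx3cr1: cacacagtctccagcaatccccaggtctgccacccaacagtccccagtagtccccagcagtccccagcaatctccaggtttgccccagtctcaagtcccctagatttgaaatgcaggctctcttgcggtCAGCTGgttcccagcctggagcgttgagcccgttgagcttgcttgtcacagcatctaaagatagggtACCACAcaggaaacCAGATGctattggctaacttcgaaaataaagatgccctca
Cxcr4: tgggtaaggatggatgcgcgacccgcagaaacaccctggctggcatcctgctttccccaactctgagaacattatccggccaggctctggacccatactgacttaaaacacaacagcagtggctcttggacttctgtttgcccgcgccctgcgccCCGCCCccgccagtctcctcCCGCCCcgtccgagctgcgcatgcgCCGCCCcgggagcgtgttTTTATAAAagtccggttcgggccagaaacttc
The Ccr2 stretch held 1 E-box, 108 bases before the start, and no other match. Cx3cr1 held E-boxes 121 and 40 bases before the start and the RUNX form 54 bases before it. Cxcr4 held 3 GC boxes, 95, 75 and 50 bases before the start, and overlapping TATA matches on both strands at 32 and 30. Of 32851 RefSeq promoter stretches of the same length, 66.2% hold the E-box, 14.0% the RUNX form, 32.7% the GC box, 12.4% the TATA form, 23.3% the ETS form and 6.5% the GATA form. Guanine and cytosine made up 61.2% of the Cxcr4 stretch, 53.6% of Cx3cr1 and 37.2% of Ccr2, against a median of 52.4%. Entries for Ccr9, Cxcr3 and Cxcr6 were also found, and a match of letters is a description only. Ccr7 is named only.

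Transcripts of 5 of the 7 receptors, Ccr2, Cxcr3, Cxcr4, Cxcr6 and Cx3cr1, differed over the 9 populations by limma's moderated F-test with Benjamini-Hochberg adjustment over all genes, where 22.7% of genes were called. The widest spread was that of Ccr2, with population means 5.31 apart on the log2 scale (adjusted p = 2.2e-07). The means of Cxcr3 were 1.56 apart (adjusted p = 0.0185), of Cx3cr1 1.43 (adjusted p = 0.00958), of Cxcr4 1.26 (adjusted p = 0.00213) and of Cxcr6 1.18 (adjusted p = 0.0209). Ccr9, with means 1.14 apart (adjusted p = 0.186), and Ccr7, with means 0.60 apart (adjusted p = 0.145), did not pass. The median spread was 1.26 over the 7 receptors and 0.63 over all genes. The receptors were chosen with earlier results of these data known, so their share called and their spread beside all genes are a description only. The calls of Cxcr3 (adjusted p = 0.0725 without NK replicate 2) and of Cxcr6 (adjusted p = 0.0557 without flt3- CMP replicate 1 and adjusted p = 0.0542 without flt3- CMP replicate 2) rested on single arrays. With all probe sets of the table tested, Cxcr3 (adjusted p = 0.0741) and Cxcr6 (adjusted p = 0.074) were lost and 3 of the 7 were called.

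**Figure D1:**
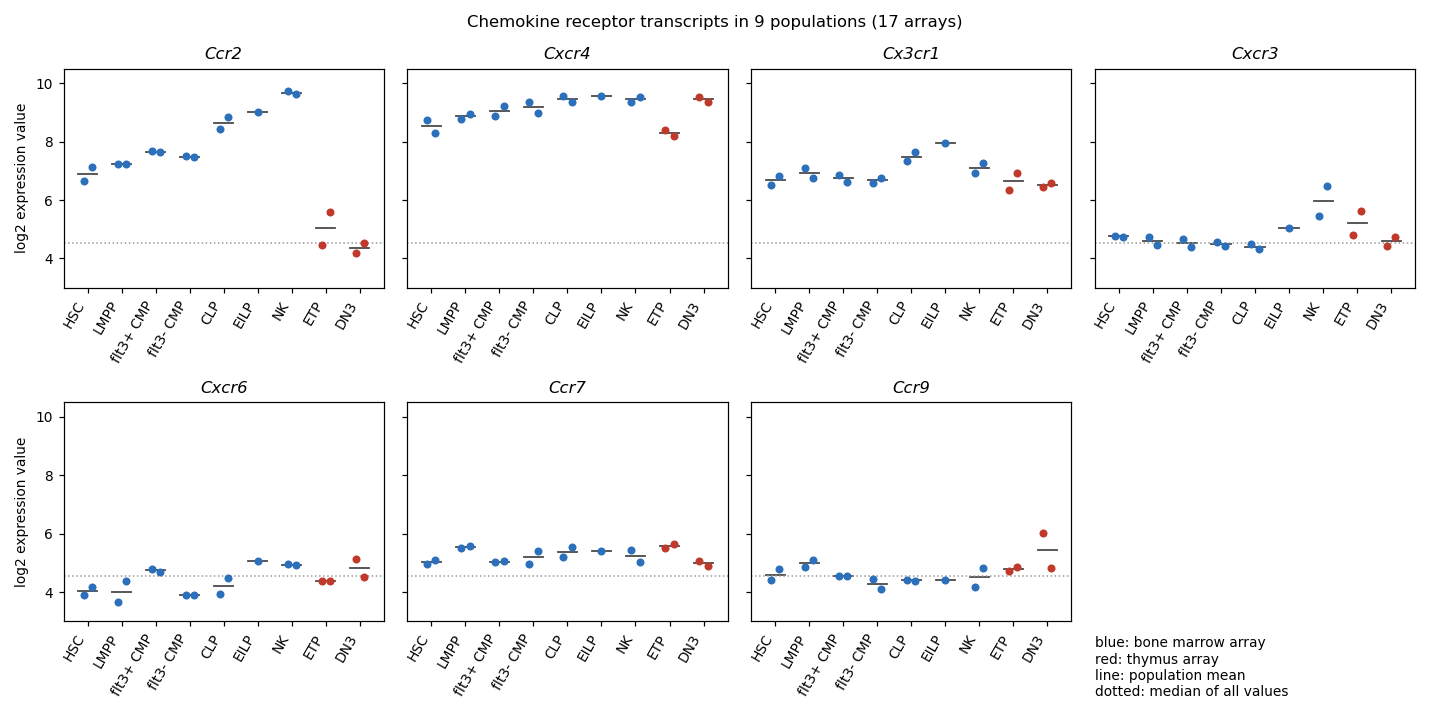
Log2 expression value (vertical axis) of each receptor in the 9 populations (horizontal axis), with 1 point per array, blue for bone marrow and red for thymus, a line at each population mean and a dotted line at the median of all values, 4.54. Ccr2 lies at 6.64 or above in every marrow array and at 5.60 or below in every thymus array, while the points of Ccr7 stay between 4.89 and 5.66.

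Ccr2 was the receptor with the clearest order. It was highest in NK, at 9.73 and 9.63, then at 9.02 in EILP and at 8.42 and 8.85 in CLP. The other marrow progenitors lay lower, with flt3+ CMP at 7.69 and 7.63, flt3- CMP at 7.50 and 7.47, LMPP at 7.23 and 7.22 and HSC at 6.64 and 7.13. In thymus it was at 4.46 and 5.60 in ETP and at 4.20 and 4.54 in DN3. All 13 marrow arrays were thus above all 4 thymus arrays, and within marrow the 5 NK, EILP and CLP arrays were above the 8 others. Of the 36 pairs of populations, Ccr2 was called in 26, where 6.53% of all gene and pair combinations were called. Only 1 of the 8 steps between neighbours in the order passed the test, that from HSC to ETP (1.86, adjusted p = 0.00134). The steps from NK to EILP (0.66, adjusted p = 0.431), from EILP to CLP (0.39, adjusted p = 0.877), from CLP to flt3+ CMP (0.97, adjusted p = 0.0818) and from ETP to DN3 (0.66, adjusted p = 0.212) did not pass.

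Within marrow, Ccr2 was 1.41 ± 0.29 higher in CLP than in LMPP (log2, SE, n = 2 against 2, a fold of 2.65, limma adjusted p = 0.0105). It was the 1 receptor of 7 called in that comparison, where 5.96% of all genes were called and 3.75% were called higher. Without LMPP replicate 1 or 2 the call was lost (1.41, adjusted p = 0.0637, and 1.40, adjusted p = 0.0649), as it was without CLP replicate 2 (1.19, adjusted p = 0.111). In the same comparison 6 of 10 neutrophil markers and 6 of 9 monocyte and macrophage markers were higher, with none lower, and their part in the result was not tested. Ccr2 was 1.04 ± 0.29 higher in NK than in CLP (adjusted p = 0.0498), a call that was lost with each array centred on its median (0.90, adjusted p = 0.0689), with quantile normalization (1.12, adjusted p = 0.0503) and with all probe sets tested (adjusted p = 0.117). It was also lost without any single array of HSC, LMPP, flt3+ CMP, flt3- CMP, CLP, NK or DN3 (0.83 to 1.26). In NK against CLP, 3 of 10 neutrophil markers and 5 of 9 monocyte and macrophage markers were lower, with none higher. Of 7 mature T cell markers 3 were higher, with none lower, and 6.39% of all genes were called. The part of these markers in the Ccr2 difference was not tested.

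Between marrow and thymus, Ccr2 fell by 2.20 ± 0.29 from LMPP to ETP (n = 2 against 2, adjusted p = 0.00047), a comparison in which both sides have low Y-linked transcripts. With those arrays alone in the fit, chosen after seeing the data, the difference is the same by construction and the error is estimated from those arrays (adjusted p = 0.00152). It fell by 3.60 ± 0.29 from CLP to ETP (adjusted p = 1.48e-06), and EILP was 3.99 ± 0.36 above ETP (n = 1 against 2, adjusted p = 7.21e-06). Of the ETP arrays, at 4.46 and 5.60, the lower lies below the median of all values. From ETP to DN3 the difference of -0.66 ± 0.29 did not pass (adjusted p = 0.212). All 10 neutrophil markers were lower in ETP than in LMPP, as were 4 of 9 monocyte and macrophage markers, and their part in the drop of Ccr2 was not tested. In bulk samples such as these, fewer cells that carry a transcript and less transcript per cell cannot be told apart.

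**Figure D2:**
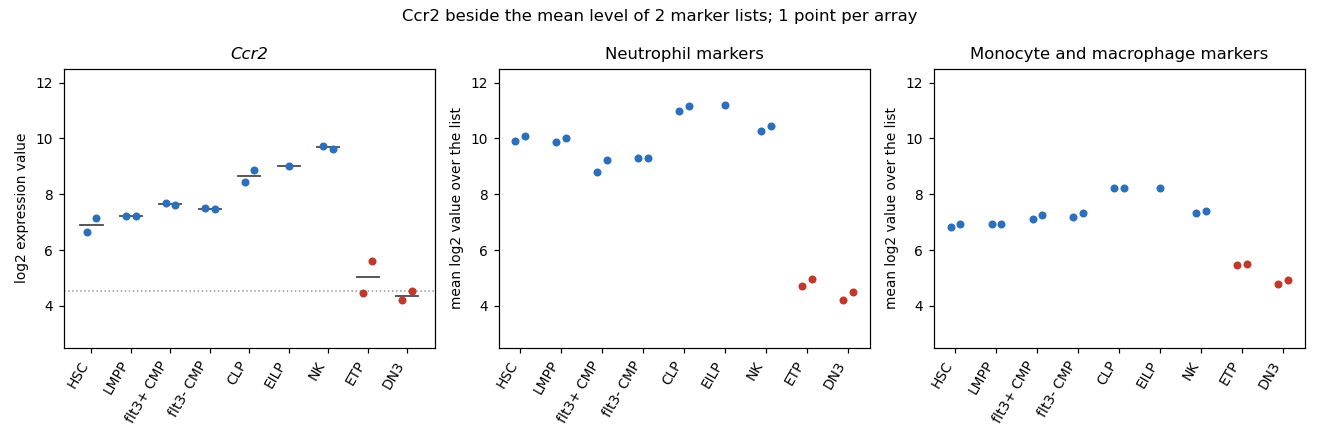
Ccr2 (left, log2 expression value) beside the mean log2 value over 10 neutrophil markers (middle) and over 9 monocyte and macrophage markers (right) in the 9 populations, with 1 point per array, blue for marrow and red for thymus. All panels drop from marrow to thymus. Ccr2 is highest in NK, at 9.63 and 9.73, and the neutrophil markers are highest in EILP, at 11.20. The part of the markers in the Ccr2 values was not tested.

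Cx3cr1 was highest in EILP, at 7.94, followed by CLP at 7.33 and 7.64 and NK at 6.93 and 7.27. LMPP lay at 7.10 and 6.77, flt3+ CMP at 6.87 and 6.61, HSC at 6.52 and 6.82, and flt3- CMP at 6.58 and 6.77. In thymus ETP was at 6.36 and 6.93 and DN3 at 6.45 and 6.58. The EILP and CLP arrays were above all others, and the remaining populations overlapped. EILP exceeded ETP by 1.30 ± 0.27 (n = 1 against 2, adjusted p = 0.00721), and ETP was lower than CLP by a log2 difference of -0.84 ± 0.22 (adjusted p = 0.0197). The latter call was lost without CLP replicate 2 (-0.69, adjusted p = 0.163), without ETP replicate 1 (-0.56, adjusted p = 0.139) and with quantile normalization (-0.64, adjusted p = 0.0962). The difference of NK from EILP was -0.84 ± 0.27 and did not pass (adjusted p = 0.12). Of the 36 pairs 9 were called, and no step between neighbours was. Monocyte and macrophage markers were highest in the same arrays, EILP at 8.21 and CLP at 8.21 and 8.22, and their part in the Cx3cr1 values was not tested.

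Cxcr4, the receptor of marrow retention, was well above the median of all values everywhere. It was at 9.56 in EILP, 9.57 and 9.37 in CLP, 9.53 and 9.37 in DN3 and 9.35 and 9.54 in NK. The myeloid progenitors followed, with flt3- CMP at 9.37 and 8.99 and flt3+ CMP at 8.89 and 9.21. LMPP was at 8.77 and 8.95, HSC at 8.73 and 8.31 and ETP at 8.41 and 8.19. CLP, EILP, NK and DN3 thus lay highest, with overlapping arrays, and ETP and HSC lay lowest, also overlapping. No step between neighbours passed the test. The 2 thymus populations lay far apart in this order, DN3 among the highest and ETP at its end. DN3 exceeded ETP by 1.15 ± 0.20 (n = 2 against 2, a fold of 2.22, adjusted p = 0.00188), the 1 receptor called in that comparison, where 8.73% of genes were called and 5.2% were called higher. ETP was below CLP by a log2 difference of -1.17 ± 0.20 (adjusted p = 0.00106) and EILP above ETP by 1.26 ± 0.24 (adjusted p = 0.0044). HSC was below CLP (-0.95, adjusted p = 0.00817), EILP (-1.03, adjusted p = 0.0231), NK (-0.92, adjusted p = 0.00892) and DN3 (-0.93, adjusted p = 0.00728), and ETP was also below NK (-1.14, adjusted p = 0.00145), flt3- CMP (-0.88, adjusted p = 0.00946) and flt3+ CMP (-0.75, adjusted p = 0.0389). Between CLP and LMPP the difference of 0.61 ± 0.20 did not pass (adjusted p = 0.0989). In ETP against CLP, 10 of 10 neutrophil, 8 of 9 monocyte and macrophage and 5 of 5 red cell markers measured were lower, and in EILP against ETP 10, 7 and 5 of them were higher. The red cell markers had a mean of 7.08 to 7.22 in CLP, 7.13 in EILP and 4.86 to 5.02 in ETP. In DN3 against ETP, where Cxcr4 was higher, 2 neutrophil, 3 monocyte and macrophage and 1 red cell marker were lower. Of the 7 genes of the mature T cell list 4 were higher, but that list shares Cd3e with the DN3 markers. Its genes Cd4 and Cd8a did not pass the F-test over the 9 populations (adjusted p = 0.364 and 0.503). The part of these markers in the Cxcr4 values was not tested.

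Cxcr3, a receptor of NK and effector T cells, was at 5.46 and 6.48 in NK, at 4.82 and 5.63 in ETP and at 5.03 in EILP. The 12 other arrays lay between 4.34 and 4.78. Both NK arrays were above all arrays but 1 of ETP, and the replicates of NK and of ETP lay far apart. NK exceeded CLP by 1.56 ± 0.30 (n = 2 against 2, a fold of 2.96, adjusted p = 0.0059). With Ccr2 it made 2 of 7 receptors called between NK and CLP, where 6.39% of genes were called and 3.22% were called higher. Without NK replicate 2 the call was lost (1.06, adjusted p = 0.0519), as it was without CLP replicate 2 (1.49, adjusted p = 0.0528). In the same comparison 3 of the 7 mature T cell markers measured were higher in NK, Cd3g (4.41 ± 0.27, adjusted p = 1.7e-07), Cd28 (1.27 ± 0.31, adjusted p = 0.0259) and Cd3e (1.08 ± 0.25, adjusted p = 0.0192). The mean over those markers was 5.15 to 5.28 in NK and 4.08 to 4.13 in CLP, and their part in the Cxcr3 values was not tested. Cxcr3 is on the X chromosome, and Xist, which marks the inactive X, was at 11.24 to 11.81 in the arrays with low Y-linked transcripts and at 7.13 to 9.44 in those with high ones. NK also exceeded HSC (1.21, adjusted p = 0.0213), LMPP (1.38, adjusted p = 0.0124), flt3+ CMP (1.45, adjusted p = 0.00776) and flt3- CMP (1.48, adjusted p = 0.00542), which share the low side with it. The differences of NK from ETP (0.75, adjusted p = 0.144) and EILP (0.94, adjusted p = 0.221) did not pass.

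Cxcr6, a receptor of innate lymphoid cells, was close to the median of all values in every population, where the size of a difference is uncertain. It was at 5.08 in EILP, 4.97 and 4.92 in NK, 5.14 and 4.51 in DN3 and 4.81 and 4.69 in flt3+ CMP. The others lay lower, with ETP at 4.40 and 4.39, CLP at 3.94 and 4.50, HSC at 3.92 and 4.17, LMPP at 3.66 and 4.37 and flt3- CMP at 3.89 and 3.91. Every array of the first 4 populations lay above every array of these 5, with the lower DN3 array at 4.51 next to the higher CLP array at 4.50. NK was called above HSC (0.90, adjusted p = 0.0414), LMPP (0.93, adjusted p = 0.043) and flt3- CMP (1.04, adjusted p = 0.016), and EILP (1.18, adjusted p = 0.0366) and DN3 (0.92, adjusted p = 0.0438) above flt3- CMP. EILP was 0.87 ± 0.31 above CLP, with a 95% interval of 0.20 to 1.53, and did not pass over all genes (adjusted p = 0.412). The flt3+ CMP were 0.85 ± 0.25 above flt3- CMP (interval 0.30 to 1.39, adjusted p = 0.265).

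Ccr9 and Ccr7, the receptors of thymus settling, did not pass the F-test. Ccr9 was at 6.04 and 4.82 in DN3, at 4.74 and 4.85 in ETP and between 4.10 and 5.12 in the 13 marrow arrays. The ETP values lay within the range of marrow, and 1 DN3 array alone lay above it. ETP differed from CLP by 0.38 ± 0.31, with a 95% interval of -0.29 to 1.06, and from LMPP by -0.19 ± 0.31, with an interval of -0.87 to 0.49. The 1 pair called was DN3 above flt3- CMP (1.14, adjusted p = 0.0448), and without DN3 replicate 2 the F-test passed (adjusted p = 0.0123). Ccr7 was at 5.52 and 5.66 in ETP, 5.51 and 5.59 in LMPP, 5.42 in EILP, 5.21 and 5.56 in CLP, 5.44 and 5.04 in NK and 4.98 and 5.40 in flt3- CMP. The lowest were flt3+ CMP at 5.03 and 5.06, HSC at 4.97 and 5.12 and DN3 at 5.08 and 4.89. Ccr7 was called in 0 of the 36 pairs by limma. Its differences between LMPP and HSC (0.50 ± 0.19, unadjusted p = 0.02), flt3+ CMP and LMPP (-0.50 ± 0.19, unadjusted p = 0.019) and DN3 and ETP (-0.60 ± 0.19, unadjusted p = 0.0068) had 95% intervals that left out 0 but did not pass over all genes. The interval between ETP and LMPP was -0.37 to 0.45.

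**Figure D3:**
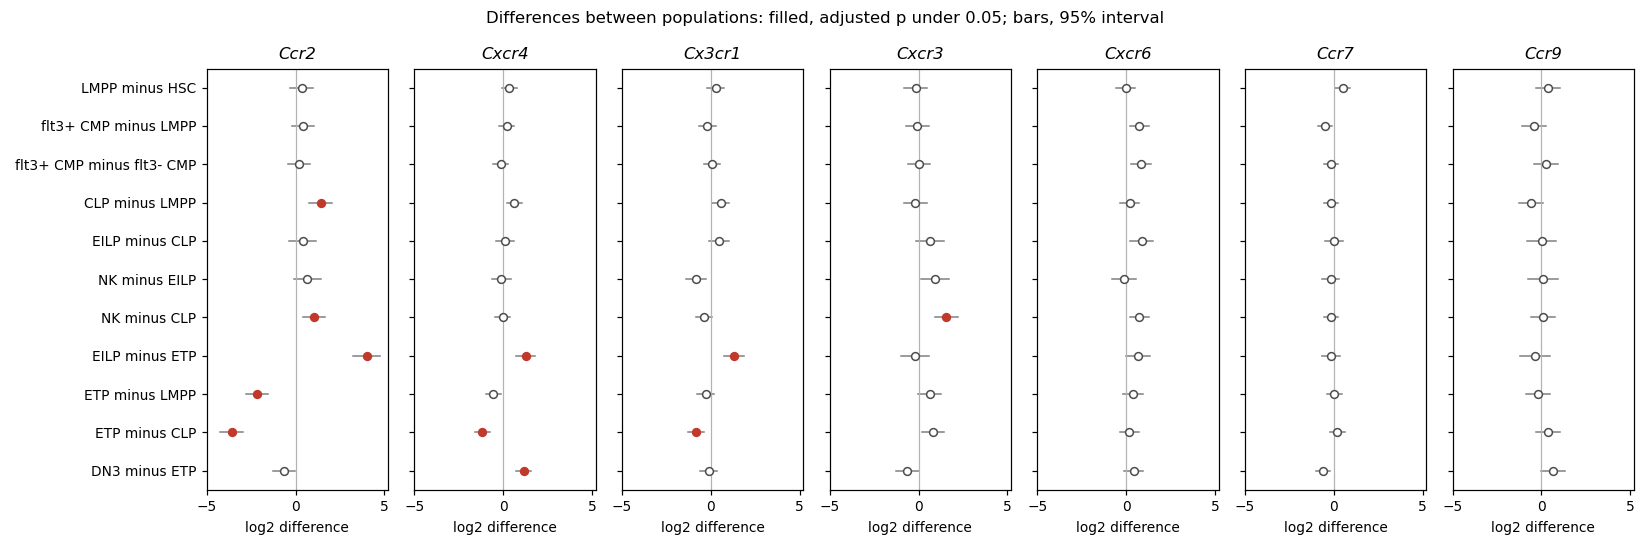
Log2 difference (horizontal axis) of each receptor in the 11 comparisons (vertical axis), first population minus second. Points are the differences, filled where the limma adjusted p is under 0.05, and bars are 95% intervals. Ccr2 ranges from -3.60 in ETP minus CLP to 3.99 in EILP minus ETP, while no point of Ccr7, Ccr9 or Cxcr6 is filled.

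Among the comparisons, the receptors were called most often between marrow lymphoid progenitors and ETP. Ccr2, Cxcr4 and Cx3cr1 made 3 of 7 higher in EILP than in ETP, where 8.19% of genes were called and 4.79% were called higher. The same 3 were lower in ETP than in CLP, where 13.1% of genes were called and 7.64% were called lower. The median difference of the 7 was 0.68 in EILP minus ETP and 0.18 in ETP minus CLP, against -0.06 and 0.12 over all genes. These comparisons share the ETP arrays. In ETP against LMPP 1 of 7 was called, Ccr2, with 3.42% of genes called, 2.4% lower, and a median of -0.19 over the receptors and 0.04 over all genes. None of the 7 was called in LMPP against HSC by limma (0, with 1 at an unadjusted p under 0.05 and 0.6% of genes called) or between flt3+ CMP and LMPP (0, with 2 at an unadjusted p under 0.05, 0.442% of genes called). None was called between flt3+ CMP and flt3- CMP (0, with 1 at an unadjusted p under 0.05, 0.108% of genes called), EILP and CLP (0, with 1, 0.365% of genes called) or NK and EILP (0, with 2, 3.48% of genes called). Between EILP and CLP the median difference of the receptors was 0.39, against 0.05 over all genes. The 95% interval for Ccr2 there was -0.38 to 1.16 and that for Cxcr4 -0.43 to 0.60, and the interval for Ccr2 thus reaches past 2-fold.

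The other chemokine receptors, of which 15 of 16 listed were measured, moved mainly through Ccr1 and Cxcr2, both receptors of neutrophils and monocytes. Ccr1 was at 6.55 and 6.76 in CLP and 6.79 in EILP, against at most 5.06 elsewhere. It was higher in CLP than in LMPP by 2.23 ± 0.23 (adjusted p = 5.73e-05), and with Cxcr2 (1.58 ± 0.28, adjusted p = 0.0043, without CLP replicate 2 1.32 and adjusted p = 0.0591) it made 2 of 15 called. In that comparison 5.96% of all genes were called and 3.75% were called higher. Cxcr2 is also among the 10 neutrophil markers. It was higher in EILP than in ETP by 4.99 ± 0.35 (adjusted p = 6.65e-07) and lower in ETP than in LMPP by a log2 difference of -2.93 ± 0.28 (adjusted p = 2.69e-05). Ccrl2, a nonsignalling relative, was higher in NK than in CLP by 1.77 ± 0.29 (adjusted p = 0.00187), where 3 of 15 were higher and 1 lower, against 6.39% of all genes called. Between LMPP and HSC, the CMP populations, flt3+ CMP and LMPP, and EILP and CLP, limma called 0 of the 15, with 1, 2, 2 and 0 at an unadjusted p under 0.05. Over all genes only 0.6%, 0.108%, 0.442% and 0.365% were called there. Of the ligands of the 7 receptors, 11 of 13 were measured. Cxcl10, a CXCR3 ligand, was the 1 called in NK against EILP (1.24 ± 0.23, adjusted p = 0.00903), where 3.48% of all genes were called. It was at 5.30 and 5.34 in NK.

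Several receptors lie together on chromosome 9. In the RefSeq order the protein-coding genes run Ccr9, Fyco1, Cxcr6, Xcr1, Ccr1, Ccr1l1, Ccr3 and Ccr2, and Cx3cr1 is on the same chromosome, Cxcr4 on chromosome 1, Ccr7 on chromosome 11 and Cxcr3 on X. Ccr1 and Ccr2 were called in the same direction in CLP minus LMPP (2.23 and 1.41), EILP minus ETP (3.27 and 3.99), ETP minus LMPP (-0.91 and -2.20) and ETP minus CLP (-3.13 and -3.60), comparisons that share arrays. In NK minus CLP they were called in opposite directions (-1.80 and 1.04, the latter call lost in most alternatives). Ccr1 was highest in EILP at 6.79 and Ccr2 in NK at 9.68. Xcr1 (F-test adjusted p = 0.678) and Ccr3 (adjusted p = 0.422) did not pass the F-test, and their population means were at most 3.73 and 3.24. Fyco1 did not pass either (adjusted p = 0.233). Ccr1l1 passed it (adjusted p = 0.0261) and was highest in ETP, with means of 2.74 to 3.57, below the median of all values.

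Of the 24 receptor signalling genes measured, 3 were higher and 7 lower in DN3 than in ETP, where 8.73% of all genes were called. Rgs1, which shortens G protein signals of chemokine receptors, fell by 4.22 ± 0.28 (adjusted p = 4.39e-07), Rgs18 of the same family fell by 4.04 ± 0.21 (adjusted p = 4.88e-08) and Rgs2 fell by 1.96 ± 0.26 (adjusted p = 0.000275). Pik3r5, a regulatory subunit of the lipid kinase below these receptors, rose by 1.74 ± 0.22 (adjusted p = 0.000151). Rgs1 was at 8.01 and 8.98 in ETP and 4.34 and 4.21 in DN3, at 4.63 and 4.49 in CLP and at 4.25 in EILP. NK, at 7.52 and 7.28, and HSC, at 6.98 and 7.09, lay between ETP and the others. In ETP against CLP, 3 of the 24 were higher and 9 lower, where 13.1% of all genes were called, with Rgs1 at 3.93 ± 0.28 (adjusted p = 4.15e-07) and the small GTPase Rac2, which drives cell movement, at -1.41 ± 0.27 (adjusted p = 0.00322). In CLP against LMPP 5 were higher and 3 lower, where 5.96% of all genes were called. Between EILP and CLP limma called 0 of the 24, with 2 at an unadjusted p under 0.05, where 0.365% of all genes were called.

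Of the egress and rolling genes, 10 of 12 listed were measured. S1pr1, the sphingosine phosphate receptor by which lymphocytes leave tissues, was at 5.96 and 6.67 in NK and at most 5.01 elsewhere. It was higher in NK than in CLP by 2.16 ± 0.21 (adjusted p = 2.65e-05) and than in EILP by 2.17 ± 0.26 (adjusted p = 0.000262), and it was the 1 of 10 called in each, where 6.39% and 3.48% of all genes were called. Cd44, an adhesion receptor for hyaluronan that is lost at the DN3 stage, fell by 2.37 ± 0.21 from ETP to DN3 (adjusted p = 6.24e-06), where 3 of 10 were lower and 2 others passed only at an unadjusted p under 0.05, against 8.73% of all genes called.

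**Figure D4:**
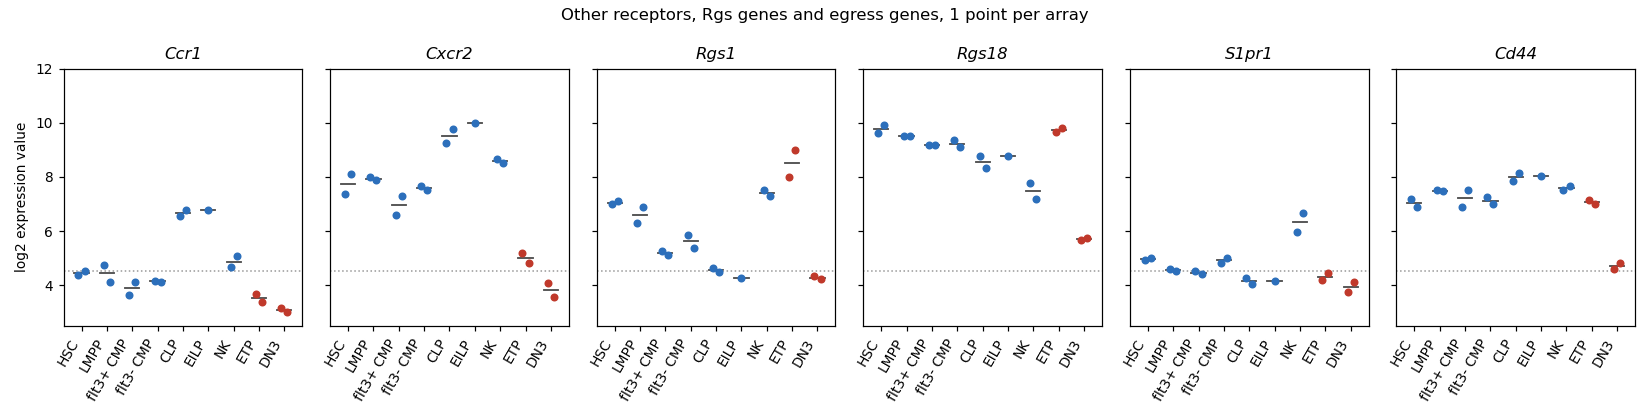
Log2 expression value (vertical axis) of 2 other chemokine receptors, 2 Rgs genes, S1pr1 and Cd44 in the 9 populations (horizontal axis), with 1 point per array, blue for marrow and red for thymus, and a line at the population mean. Rgs1 is at 8.01 and 8.98 in ETP and 4.34 and 4.21 in DN3, and S1pr1 is highest in NK, at 5.96 and 6.67.

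The genes whose population means were most like those of a receptor were taken from 2040 genes with means that vary by an SD of at least 0.5, as a description over 9 populations. For Ccr2 they were Atf6 (Pearson r = 0.965), Fcer1g (0.960), a signalling chain of Fc receptors, and Aoah (0.960), which inactivates bacterial lipopolysaccharide. For Cx3cr1 they were Rnd3 (0.986), Cyp4f18 (0.978) and Adam19 (0.971), each with its highest mean in EILP and its lowest in DN3. For Cxcr4 they were Pld4 (0.941), Rab27a (0.938), a GTPase of granule release, and Lta4h (0.931), all lowest in ETP. For Cxcr3 they were Scimp (0.946), Ugcg (0.937) and Ctsw (0.937), a protease of cytotoxic cells, all highest in NK. Ccr9 was most like Carmil2 (0.958), Spata6 (0.922) and Mtf2 (0.883), all highest in DN3, and Cxcr6 like Slc22a13b (0.853), Lbh (0.741) and Sh2d1b1 (0.693). For Ccr7, whose means barely vary (SD 0.22), they were Tlr7 (0.860), Fcrl1 (0.853) and Ggt5 (0.851). Among the receptors themselves Ccr2 and Cx3cr1 had r = 0.72 and Ccr2 and Ccr9 r = -0.76 over the 9 means. The points share the arrays of each population and its neutrophil transcripts.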

How the data were processed

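RNA of 9 cell populations was measured on 17 arrays. Per the submitters' processing notes, the authors processed them with Affymetrix Expression Console, with its version and algorithm not given in the sources used here. In all, the deposited table holds log2 expression values for 41345 probe sets, from 1.58 to 13.77, and the log2 scale was read from the values. Per the labels, RNA was extracted with Trizol, amplified with a Nugene kit and labelled with biotin.

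Probe sets were named from the platform annotation: 23521 have 1 symbol, 1814 several and 16010 are not listed. Of several probe sets for a gene, the brightest on average was kept, which left 22180 genes. All 17 arrays entered 1 limma fit (version 3.58.1, R 4.3.3) with a mean for each population, moderated by eBayes. It had 8 residual degrees of freedom and a prior of 5.33, and was tested on simulated data. EILP, with 1 array, is assumed to vary like the others. The F-test, 11 comparisons and all 36 pairs were each adjusted by Benjamini-Hochberg over all genes and called under 0.05. Tests are two-sided. No low-value filter was applied, so all 7 receptors were tested. The number of arrays limits the precision. The members and gene lists were chosen with earlier results of these data known.

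The 7 receptors were named throughout, genes of the wider lists only where called and changed at least 2-fold (up to 3 per list and direction), and the 3 genes with the highest correlation per receptor. Small RNA genes, predicted and Rik genes, pseudogenes, olfactory receptors and antigen receptor segments were left out of the last. Marker levels are means of log2 values over a list. Alternatives were array centring, quantile normalization, a filter on dim genes, averaging the probe sets of each gene, testing every probe set, a trended variance prior, a replicate block, the 2 populations alone, 1 side of the Y-linked split, and leaving out each replicate.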

Additional observations from a re-analysis of the deposited data

How the results depend on the processing

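Single differences were followed under the alternatives only where they were called in the fit of all arrays, and none of these changed direction. The direction of differences not called there was not checked. Leaving out a replicate of a population outside the comparison leaves a difference unchanged by construction. So do a trended variance prior, a replicate block and a fit of the 2 populations alone, where only the error and the adjusted p can change. The counts below include such fits. The values of single receptors counted next include p-values of the F-test, which have no direction. Of 423 values of single receptors under an alternative, 387 kept their side of the threshold, 35 lost their call and 1 gained one, and of 1137 values of other genes named, 1056 kept theirs and 81 lost it. The Rgs1 difference between flt3+ CMP and LMPP (-1.40, adjusted p = 0.0495) lost its call in most, at -1.69 to -1.10 without single replicates. The number of receptors called over the 9 populations was 5, against 3 with all probe sets of the table, where more features are tested, and 4 to 6 without single replicates. For NK minus CLP it was 2, against 1 with array centring, quantile normalization or all probe sets, 0 with only those populations in the fit, and 0 to 2 without single replicates (0 without CLP replicate 2 or NK replicate 2). For EILP minus ETP it was 3, against 1 with only those populations, where few degrees of freedom remain. Without single replicates it was 0 to 1 for CLP minus LMPP, 0 to 1 for NK minus EILP (Cxcr3 was called without NK replicate 1) and 1 to 2 for DN3 minus ETP, where Ccr2 was called too without ETP replicate 1 and Ccr9 without DN3 replicate 2. For ETP minus CLP it was 2 to 4. The cause of these changes was otherwise not tested.

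Replicate numbers are shared between populations, but the labels do not say that they mark a shared animal or day. Over 28 pairs of populations the differences between replicates 1 and 2 correlated at -0.07 to 0.09, so no effect shared by replicates of the same number was seen. This does not tell whether such replicates share an animal or day. With the replicate number as a block, EILP left out, the receptors called were 1 in CLP minus LMPP, 2 in NK minus CLP, 1 in ETP minus LMPP, 3 in ETP minus CLP, 1 in DN3 minus ETP and 0 in the others, as without it. Over all genes the block moved the calls between flt3+ CMP and flt3- CMP from 24 to 6, which were 9 with centring, 11 with quantile normalization and 1 with all probe sets. Those between flt3+ CMP and LMPP went from 98 to 60 with all probe sets. Leaving out 1 replicate, or fitting only the populations compared, also moved all-gene counts by over 1.5 times in every comparison but NK minus EILP and EILP minus ETP, which moved only in the latter setting (772 to 125 and 1817 to 855). Within 1 side of the Y-linked split, chosen after seeing the data, the counts of receptors called were unchanged in the 5 comparisons that allow it, while the calls over all genes went from 81 to 22 in EILP minus CLP and from 24 to 1 between the CMP populations. Those 5 comparisons already lie within 1 side, so each difference is the same by construction and only the error estimate changes. The count of receptors was 0 before and after in all of them but ETP minus LMPP, where it was 1. The 6 comparisons across the split cannot be fitted this way, so their dependence on it was not tested. Signals near the median of all values limit what can be said of Cxcr6, Ccr9 and Cxcr3.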
